A study of Gossypium hirsutum with 51 samples.

Results

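Wild-type upland cotton ovules of age +15 were compared with wild-type ovules of age +10, ages being days post anthesis with the opening of the flower as 0. The interval takes the ovule from fast fibre elongation towards the thickening of the fibre wall. Of 51 cDNA arrays in the series, 10 enter this comparison. They are 6 arrays of +15 against +3 wild type and 4 arrays of +10 against +3 wild type. No array held +15 and +10 RNA together, so each age was first expressed relative to +3 wild type and the difference of the 2 log2 ratios was taken for each probe. A set is an array and its dye swap, in which the 2 dyes are exchanged between the RNAs. The +15 group had 3 sets and the +10 group had 2, sets 1 and 3. Set 2 of +10 was left out because its forward array carries the same values in its control rows and named spots as an array labelled +5 against +3. Ovules of wild type at +20, +5, 0 and -3, and of the fl mutant at +10 and +3, appear below only to describe the same probes. The labels give genotype and age for each RNA and name the tissue as ovule. They state no cultivar or growth condition, and they do not say whether fibres stayed on the ovules. The design text calls the samples biologically independent, and a set was counted as 1 replicate.

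A cotton fibre is a single cell of the outer ovule epidermis. It first lengthens under turgor while its thin primary wall is loosened and extended, with actin filaments carrying vesicles and microtubules guiding where cellulose is laid down. It then changes over to building a thick secondary wall that is almost pure cellulose, a change that overlaps with the end of elongation. The embryo, endosperm and seed coat inside the same ovule mature over the same days. In RNA of whole ovules, fewer cells of a type and less RNA per cell cannot be told apart.

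The deposited table names 11682 cDNA clones by plate and well, lists 11 spots under gene-like names and holds 13 control rows. Genes are not paired with the clones in the sources used here, so clones appear under their own names, no tissue marker could be checked, and gene lists by pathway could not be applied. The +15 arrays measured between 9954 and 11577 clones and the +10 arrays between 10730 and 11350. The table used here holds ratios and no spot brightness, so precision is judged from the sets alone, whose number limits it. The direction of the ratios is likely and not stated. It rests on a control spot named HEX, which read from -11.3 to -8.70 on the 6 forward arrays of the +15 and +10 comparisons and from 8.46 to 11.9 on their 6 dye swaps. If all ratios ran the other way, higher and lower would exchange places throughout. The HEX values given cover no array of wild type against fl. At +10 that comparison is read as wild type over fl from its labels alone.

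Between the 2 ages, 3121 of 10088 probes tested changed (30.9%; limma, adjusted p under 0.05). Of these, 1482 were higher at +15 (14.7% of those tested) and 1639 were lower (16.2%). Most of the changes were small. The difference of the median probe was -0.00042 on the log2 scale, and the middle 50% of probes lay between -0.30 and 0.28. At least 2-fold changes numbered 292 higher (2.89%) and 411 lower (4.07%). The balance leaned further to lower among the larger changes, with 26 probes at least 4-fold higher and 64 at least 4-fold lower. The 3 sets of +15 lay wholly to one side of the 2 sets of +10 in all 292 and all 411 probes changed by 2-fold or more. That was so for 60.4% of all probes tested, and as the calls were made from these same sets the count supports nothing further. Forward arrays alone called 1401 probes, and without set 1 of +10 the count was 1785. Without set 3 of +10, 976 probes were higher and 1186 lower.

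**Figure D1:**
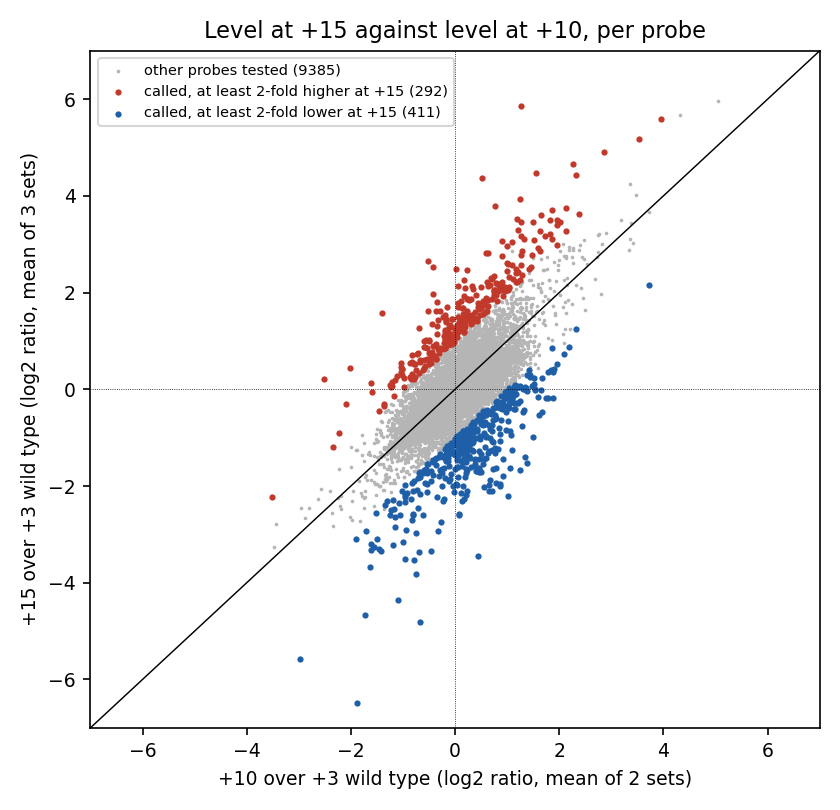
Level of each of 10088 probes at +15 (vertical axis, mean of 3 sets) against its level at +10 (horizontal axis, mean of 2 sets), both as log2 ratios to +3 wild type. Red points are the 292 probes called and at least 2-fold higher at +15, blue points the 411 called and at least 2-fold lower, and the diagonal marks equal levels.

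The probes that fell by 2-fold or more were, for the most part, at or above their +3 level at +10 and below it at +15. At +15, 345 of the 411 were called lower than +3, where 36.1% of all probes were, and 13 were called higher, where 31.7% were. At +10, 72 of the 411 were lower than +3 (30.6% of all probes) and 189 were higher (28.6% of all probes). The largest class held 150 probes with no call at +10 and a lower level at +15. A further 123 probes were above +3 at +10 and below it at +15, 72 were below it at both ages, and 53 were above it at +10 with no call at +15. Levels at +10 and +15 make up the difference by which these probes were called, so the counts describe their course and test nothing.

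The 292 probes that rose by 2-fold or more reached levels above +3 in most cases. At +15, 269 were called higher than +3 (31.7% of all probes) and 6 lower (36.1% of all probes). At +10, 112 were already higher (28.6% of all probes), 76 were lower (30.6% of all probes) and 104 had no call. Of the 76, 53 stood above +3 by +15 and 17 had no call there. The rise thus started from levels above, near and below those at +3, whereas it ended above +3 in 92.1% of these probes. Among all 1482 probes called higher, whatever the size, 1073 were above +3 at +15 and 102 below it. Of the 1639 called lower, 1025 were below +3 at +15 and 221 were still above it. As for the fallers, these levels make up the difference by which the probes were called, so the counts test nothing.

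At the later age of +20, both groups of probes kept most of their distance from +10. The median level of the risers against +3 was 0.14 at +10, 1.46 at +15 and 1.15 at +20. The fallers had medians of 0.27 at +10, -1.20 at +15 and -0.95 at +20. Of 284 risers with a value at +20, 206 were called higher than +3 (33.4% of all probes) and 28 lower (36.2% of all probes). Of 395 fallers, 283 were lower and 70 higher. The level at +20 lay within 2-fold of that at +15 in 236 of the 284 risers (83.1%) and in 362 of the 395 fallers (91.6%). Over all 9902 probes with both values this share was 98.7%, higher than in either group. It had moved back by 2-fold or more in 48 risers and 30 fallers, and further in the same direction by that much in no riser and in 3 fallers. Over all 9902 probes, 86 were at least 2-fold lower at +20 than at +15 and 44 at least 2-fold higher. The level at +15 entered the choice of both groups, so these counts are descriptions. The +20, +15 and +10 comparisons share +3 wild type.

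Before +10, the groups also stood on opposite sides. Fallers were lower before flowering than at +3, with medians of -0.39 at -3 and -0.17 at 0. Risers had medians of 0.26 at -3 and 0.10 at 0. Over all probes tested the medians were -0.018 and 0.038. At +5 both groups were close to +3, at 0.052 for risers and 0.046 for fallers, but the quartiles of the fallers were far apart, at -0.41 and 0.81.

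**Figure D2:**
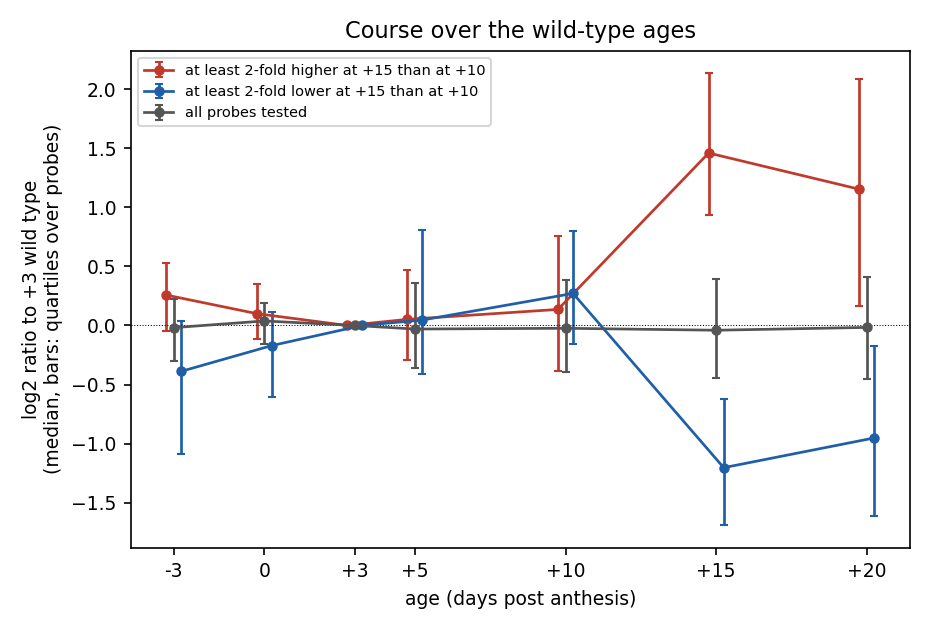
Median log2 ratio to +3 wild type at each age in days post anthesis, with bars for the quartiles over probes, for the 292 risers (red), the 411 fallers (blue) and all probes tested (grey). The value at +3 is 0 by construction. Risers and fallers part between +10 and +15 because they were chosen by that difference, and they stay apart at +20.

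The dye swap of +10 set 2 was not used in the fit and gives a further +10 measurement of the same probes. Against it, the mean of the +15 dye swaps was higher in 287 of 289 risers and lower in 410 of 410 fallers. Over all 10067 probes with both values, +15 was higher in 52.1% and lower in 47.9%. The difference was at least 2-fold in 197 of the risers (4.60% of all probes) and in 313 of the fallers (5.70% of all probes). Its median was 1.19 in risers and -1.38 in fallers, on the log2 scale. The +15 dye swaps entered the fit by which risers and fallers were chosen, so only the +10 side is new. Agreement is thus partly built in, and the counts are descriptions. The +10 side is a single array without its forward partner, so dye effects of a probe cancel only as far as the swaps share them.

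Of 260 risers and 366 falling clones measured on all 10 arrays with sets that did not overlap, the 12 with the largest rise and the 12 with the largest fall are described here. Values are log2 ratios to +3 per set, and differences carry the standard error (SE) of the fit, which takes 1 spread per probe from all comparisons of the series.

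Clone CM041D09 showed the largest rise, 24.2-fold. It read 4.54, 4.64 and 8.38 in sets 1 to 3 of +15, against 1.44 and 1.07 in sets 1 and 3 of +10. The difference was 4.59 ± 0.81 (SE; n = 3 and 2 sets; limma adjusted p = 8.45e-04), and set 3 of +15 stood far above the other two. Without that set it was 3.33. At +20 the clone stood at 5.14 ± 0.50 (SD, n = 3).

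Clone CM022E07 rose 14.5-fold with closely grouped sets. Its values were 4.16, 4.72 and 4.24 at +15, against 0.21 and 0.83 at +10. The difference was 3.86 ± 0.27 (SE; limma adjusted p = 5.13e-08). From -3 to +5 it lay between -0.20 and 0.26, near the +3 level, and at +20 it was 4.07 ± 0.56 (SD, n = 3), so its high level was found at +15 and +20.

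Clone CM063D07 was below +3 at +10 and well above it at +15. It read 2.46, 2.79 and 2.70 at +15, against -0.60 and -0.45 at +10, a 9.06-fold rise (3.18 ± 0.13, SE; limma adjusted p = 9.67e-12). Clone CM057E05 rose 8.09-fold, with 3.40, 4.02 and 3.95 at +15, against 0.96 and 0.58 at +10. Both stayed high at +20, at 2.88 ± 0.16 and 3.29 ± 0.14 (SD, n = 3 each).

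In clones CM108D12, CM015D05 and CM042D09 the level at +20 lay far below that at +15. Clone CM108D12 read 0.55, 0.29 and 0.46 at +15, against -1.99 and -2.02 at +10, and stood at -1.97 ± 0.52 at +20 (SD, n = 3). The rise to +15 was 5.44-fold (2.44 ± 0.22, SE; limma adjusted p = 1.04e-07). At +5 it was at -1.56 ± 0.0053 (SD, n = 2), so +15 stood above +5, +10 and +20. Up to flowering it was near its +15 level, at 0.51 ± 0.33 at -3 and 0.45 ± 0.089 at 0 (SD, n = 3 each). Clone CM015D05 read 1.34, 1.64 and 1.77 at +15, against -1.49 and -1.31 at +10, a 7.92-fold rise, and was at 0.16 ± 0.035 at +20 (SD, n = 3). At +10 its ratio of wild type over fl was -1.52 ± 0.21 (SD, n = 3). Clone CM042D09 read 3.53, 3.71 and 4.55 at +15, against 1.27 and 1.22 at +10, and 1.14 ± 0.10 at +20 (SD, n = 3).

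Clone CM036E01 rose 7.51-fold from a level already above +3. Its sets were 3.80, 3.96 and 5.63 at +15, against 1.44 and 1.67 at +10, and it was at 4.81 ± 0.31 at +20 (SD, n = 3). Clone CM013E07 read 3.98, 3.42 and 6.60 at +15, against 2.24 and 2.28 at +10. Its 5.32-fold rise carried an SE of 0.60 on a difference of 2.41 (limma adjusted p = 0.00623). Without set 3 of +15 the difference was 1.44, and a fit of the +15 and +10 comparisons alone gave an adjusted p of 0.0659. Against the unused +10 dye swap, which read 3.57, the +15 dye swaps averaged 4.56, a difference of 0.99. At +10 the ratios of wild type over fl were negative for CM036E01 and CM013E07, at -1.57 ± 0.38 and -2.33 ± 0.26 (SD, n = 3 each). They were positive for CM057E05, at 0.86 ± 0.12 (SD, n = 3), and CM024E02, at 1.69 ± 1.26 (SD, n = 2). Of the other named risers with at least 2 sets, CM042D09 was at 0.30. CM022E07, CM063D07 and CM108D12 were at -0.50, -0.22 and -1.71.

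Clones CM016F10 and CM073C05 had no call against +3 at +10. The first read 1.85, 1.94 and 3.65 at +15, against 0.089 and -0.052 at +10, and the second 1.81, 2.05 and 2.06 at +15, against -0.053 and -0.80 at +10. Their rises were 5.50-fold and 5.28-fold. In CM016F10 the forward array and dye swap of +10 set 3 read 0.65 and -0.76. Its unused +10 dye swap read 1.05, and the +15 dye swaps exceeded it by 1.00. Without set 3 of +15, CM016F10 differed by 1.87 and CM036E01 by 2.33, both still called. Clone CM024E02 had the least stable rise of the 12. It read 2.82, 1.94 and 5.80 at +15, against 1.32 and 1.05 at +10, a difference of 2.33 ± 0.81 (SE; limma adjusted p = 0.0408). Without set 3 of +15 the difference was 1.19 and the call was lost (limma adjusted p = 0.0806). Leaving out either +10 set also ended it (limma adjusted p = 0.133 without set 1 and 0.166 without set 3). Against the unused +10 dye swap the difference was 0.62.

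**Figure D3:**
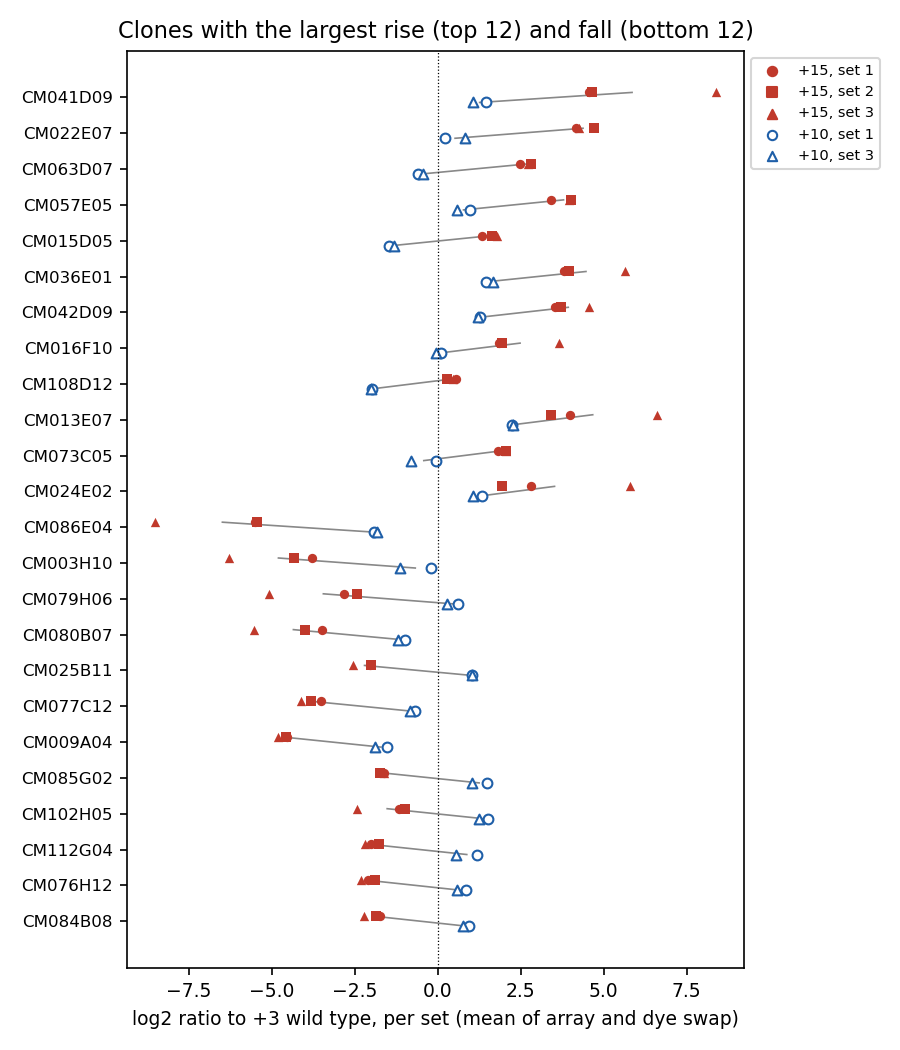
Log2 ratio to +3 wild type in each set for the 12 clones with the largest rise and the 12 with the largest fall, filled red symbols for +15 (3 sets) and open blue symbols for +10 (2 sets), with a line joining the means. In every clone the +15 sets lie on one side of the +10 sets, and in CM041D09, CM013E07, CM024E02 and CM086E04 set 3 of +15 lies far out.

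The largest fall, 24.3-fold, was that of clone CM086E04. It read -5.52, -5.45 and -8.52 in sets 1 to 3 of +15, against -1.93 and -1.85 in sets 1 and 3 of +10. The difference was -4.61 ± 0.57 (SE; n = 3 and 2 sets; limma adjusted p = 4.36e-06), and at +20 the clone was at -5.82 ± 0.40 (SD, n = 3). It was already lower than +3 at +5, at -1.41 ± 0.24 (SD, n = 2), so its level was lower at each of +5, +10 and +15 than at +3. At +10 its ratio of wild type over fl was 2.78 ± 0.58 (SD, n = 3).

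Clones CM003H10 and CM079H06 fell 17.4-fold and 14.9-fold. CM003H10 read -3.78, -4.34 and -6.30 at +15, against -0.22 and -1.14 at +10. CM079H06 read -2.83, -2.45 and -5.08 at +15, against 0.62 and 0.28 at +10 (difference -3.90 ± 0.61, SE; limma adjusted p = 7.94e-05). CM079H06 was also low before flowering, at -2.97 ± 0.32 at -3 (SD, n = 2) and -2.34 ± 0.19 at 0 (SD, n = 3). Its level was thus highest among the ages from +3 to +10, and its ratio of wild type over fl at +10 was 2.99 ± 1.34 (SD, n = 3).

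The same course was seen in CM025B11 and CM085G02. CM025B11 read -2.06, -2.03 and -2.55 at +15, against 1.02 and 1.03 at +10, a 9.42-fold fall. It had been at -1.52 ± 0.071 at -3 (SD, n = 2) and at 2.29 ± 0.28 at +5 (SD, n = 2). CM085G02 read -1.64, -1.76 and -1.62 at +15, against 1.47 and 1.02 at +10, a difference of -2.92 ± 0.37 (SE; limma adjusted p = 7.24e-06). Its level at +5 was 1.35 ± 0.13 (SD, n = 2). In wild type both exceeded fl at +10, by 3.38 ± 1.91 and 2.93 ± 1.15 (SD, n = 3 each).

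In CM080B07, CM077C12 and CM009A04 the level at +10 was already below +3. CM077C12 read -3.53, -3.84 and -4.11 at +15, against -0.68 and -0.84 at +10, an 8.40-fold fall (-3.07 ± 0.17, SE; limma adjusted p = 2.89e-10). CM080B07 read -3.49, -4.02 and -5.56 at +15, against -0.98 and -1.22 at +10. CM009A04 read -4.56, -4.59 and -4.83 at +15, against -1.54 and -1.90 at +10. They remained low at +20, at -3.88 ± 0.23 for CM077C12, -3.33 ± 0.20 for CM080B07 and -4.58 ± 0.048 for CM009A04 (SD, n = 3 each). Set 3 of +15 was the lowest +15 set in all the named fallers but CM085G02. It lay furthest below the other sets in CM086E04, CM003H10, CM079H06 and CM080B07. Without it their differences were -3.59, -3.38, -3.08 and -2.66 in that order, and all 4 clones were still called. Clone CM102H05 read -1.18, -0.98 and -2.43 at +15, against 1.51 and 1.25 at +10, a 7.51-fold fall. Without set 3 of +15 its difference was -2.46.

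The 3 remaining clones had their highest mean level at +10, with lower levels at +5 and +15. CM112G04 read -2.02, -1.76 and -2.19 at +15, against 1.19 and 0.55 at +10, a difference of -2.86 ± 0.22 (SE; limma adjusted p = 1.47e-08). CM076H12 read -2.10, -1.90 and -2.32 at +15, against 0.84 and 0.59 at +10. CM084B08 read -1.75, -1.86 and -2.24 at +15, against 0.94 and 0.77 at +10. At +5, each was below +3, at -0.50 ± 0.18, -0.97 ± 0.13 and -0.59 ± 0.029 (SD, n = 2 each). In the same order, their levels were 0.26, -0.16 and 0.38 at -3, and 0.34, 0.16 and 0.47 at 0. The unused +10 dye swap read 0.80 in CM112G04, 0.18 in CM076H12 and 1.05 in CM084B08, all above +3. Their ratios of wild type over fl at +10 were negative, at -0.63 ± 0.11, -0.90 ± 0.071 and -0.62 ± 0.13 (SD, n = 3 each).

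The 411 fallers were also sorted by their calls at +5 and +10. CM085G02 belongs to the first group below, and CM112G04, CM076H12 and CM084B08 to the second. CM079H06 and CM025B11 had no call at +10 and belong to neither. Of the 391 with a value at +5, 149 were called higher than +3 there and 111 lower, against 27.1% and 29.1% of all probes. A group of 120 was above +3 at both +5 and +10, which is 30.7% of the 391 and compares with 21.2% of all 9335 probes. Its median level was -1.18 at -3, -0.73 at 0, 1.16 at +5, 1.06 at +10, -0.26 at +15 and 0.51 at +20, and its median difference between wild type and fl at +10 was 1.74. A second group of 27 was below +3 at +5 and above it at +10, or 6.91% of the 391 and 0.846% of all probes. The level at +10 entered the choice of fallers, so these shares are descriptions. Its medians were 0.099 at -3, 0.21 at 0, -0.50 at +5, 0.55 at +10, -1.41 at +15 and -1.37 at +20. Between wild type and fl at +10 its median was -0.62. None of the 27 was called and 2-fold or more higher in wild type, against 91 of 114 in the first group and 9.68% of all probes. None of the 27 was called and 2-fold or more lower either, against 1 of 114 and 3.64% of all probes. Both groups were chosen by a level above +3 at +10, and +10 wild type also enters the ratio to fl. The groups were formed after these levels had been seen.

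Probes that separated wild type from the fl mutant also moved between +10 and +15. At +10, 866 of 8944 probes were called and at least 2-fold higher in wild type (9.68%), and 326 were at least 2-fold lower (3.64%). Among the 866, 445 fell and 38 rose at +15 against +10, and the median difference was -0.50. Of all probes tested, 16.2% fell, 14.7% rose and the median was -0.00042. Among the 326, 31 fell and 159 rose, with a median of 0.49. At least 2-fold falls made up 16.1% of the first list and 1.84% of the second, and rises of that size 1.96% and 23.0%. The comparison with fl at +10 and the comparison of +15 with +10 share +10 wild type, which enters them with opposite signs. Its part in the result was not tested.

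The lists formed from wild type and fl at +3 contain no +10 RNA. The labels name wild type first, as for the +10 comparison, but settle the sign of neither. The +10 lists above are read as wild type over fl, and for +3 both signs are given as deposited. Of 9533 clones tested, 409 had a called ratio of 2-fold or more below 0 (4.29%) and 73 one of 2-fold or more above 0 (0.766%). At +15 against +10, 239 of the 409 fell and 10 rose, with a median of -0.55. Of the 73, 9 fell and 23 rose, with a median of 0.19. At least 2-fold falls numbered 84 of the 409 and none of the 73. Read as wild type over fl, the 409 would be clones lower in wild type, and they fell more often than they rose. At +10, read in the same way, it was the probes higher in wild type that fell more often. The lists from +3 share +3 wild type with both ages compared.

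**Figure D4:**
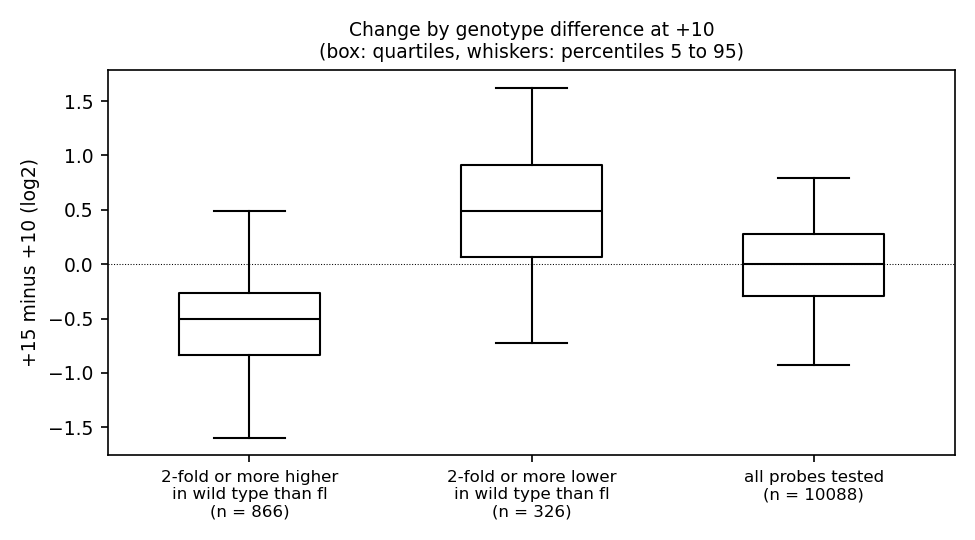
Difference of +15 minus +10 (log2) for the 866 probes that were 2-fold or more higher in wild type at +10 than in the fl mutant, the 326 that were lower by as much, and for all 10088 probes tested. Boxes give quartiles and medians, whiskers percentiles 5 to 95. The first list lies mostly below 0, with a median of -0.50, and the second mostly above it, with a median of 0.49.

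Among the 11 spots with gene-like names, ACT1 and TUB1 were lower at +15 than at +10, and the other 9 were not called. ACT1 and TUB1 are names used for an actin and a tubulin gene of cotton in the RefSeq table (assembly Gossypium_hirsutum_v2.1), the building blocks of microfilaments and microtubules. The table lists both ACT1 and ACT2 as synonyms of the actin gene LOC107911661 and TUB1 as a synonym of LOC107926975. Which sequence a spot carries is not given in the sources used here. Their values are given on the deposited scale of each array.

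ACT1 read -0.67, -0.097 and -0.36 in sets 1 to 3 of +15, against 0.67 and 1.38 in sets 1 and 3 of +10. It averaged -0.38 ± 0.29 at +15 (SD, n = 3) and 1.03 ± 0.50 at +10 (SD, n = 2), and the fall was 2.64-fold (-1.40 ± 0.23, SE; limma adjusted p = 1.47e-04). All +15 sets were below +3 and both +10 sets above it. TUB1 read 0.63, 1.03 and 0.88 at +15, against 1.72 and 1.99 at +10, a 2.01-fold fall (-1.01 ± 0.16, SE; limma adjusted p = 7.34e-05). Unlike ACT1 it was still above +3 in every +15 set, and its level at +20 was 1.49 ± 0.22 (SD, n = 3). Over the other ages, ACT1 was at -1.85 ± 0.072 at -3 (SD, n = 2), -1.29 ± 0.024 at 0 (SD, n = 3), 0.76 ± 0.31 at +5 (SD, n = 2) and -0.22 ± 0.14 at +20 (SD, n = 3). It was thus above +3 at +5 and +10 and below it at the 2 ages up to flowering. At +10 both spots were higher in wild type than in the fl mutant, ACT1 by 1.55 ± 0.45 and TUB1 by 0.52 ± 0.082 (SD, n = 3 each).

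ACT2 and TUB2 were not called. ACT2 read 0.42, 0.96 and 0.93 at +15, against 1.09 and 0.91 at +10, with a difference of -0.23 ± 0.22 (SE; limma adjusted p = 0.459). TUB2 read -0.16, 0.47 and 0.66 at +15, against 0.65 and 0.76 at +10, with a difference of -0.38 ± 0.27 (SE; limma adjusted p = 0.299). The sets of the 2 ages overlapped for both spots. The difference of SDH was -0.69 ± 0.31 (SE; limma adjusted p = 0.0978), with 0.28, 0.86 and 0.84 at +15, against 1.25 and 1.46 at +10. A fit of the +15 and +10 comparisons alone called SDH lower (limma adjusted p = 0.0410).

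The spots ATP1, ATP2, CYC1, UQCR, USP1 and USP2 differed by between -0.17 and 0.091 (log2). In all 11 spots, ACT1 and TUB1 included, set 1 of +15 was the lowest of the 3 sets of that age, between 0.40 and 0.87 below the highest. The median of the 11 spots was -0.22 in that set, against 0.25 and 0.36 in sets 2 and 3 of +15 and 0.15 and 0.52 in sets 1 and 3 of +10. With the spots of each array centred on their median, ACT1 differed by -1.08 and TUB1 by -0.68, both called (limma adjusted p = 3.05e-04 and 0.00491).

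**Figure D5:**
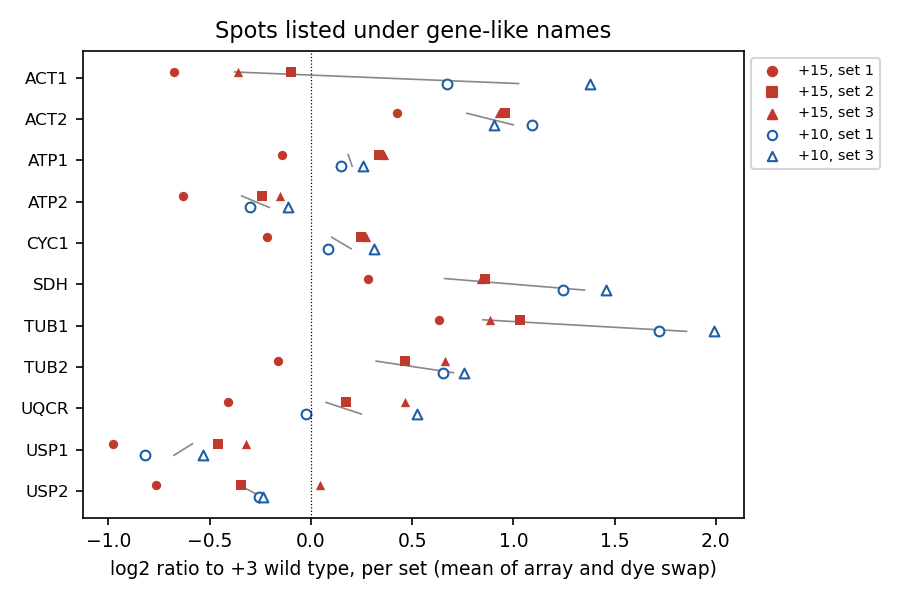
Log2 ratio to +3 wild type in each set for the 11 spots listed under gene-like names, filled red symbols for +15 (3 sets) and open blue symbols for +10 (2 sets), with a line joining the means. ACT1 and TUB1 are the called spots, and their +15 sets lie below both +10 sets.

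Set 3 of +15 had the widest values. The SD over clones was 0.74, 0.76 and 1.004 in sets 1 to 3 of +15, against 0.65 in each of sets 1 and 3 of +10. Set 3 was the highest +15 set in 161 of 260 risers with 3 sets and the lowest in 254 of 368 fallers. Without it, 239 probes were at least 2-fold higher and 336 lower. With all arrays scaled to a common spread, 165 were at least 2-fold higher and 264 lower. The print plate of a clone also moved with the direction, in a division of the plates made after the values had been seen. On plates 80 to 124, 224 of 3432 clones fell by 2-fold or more and 70 rose, with a median difference of -0.071. On plates 1 to 79, 185 of 6645 fell by that much and 222 rose, with a median of 0.040. After each plate was centred within each array, 278 probes were at least 2-fold higher and 381 lower.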

How the data were processed

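The data are 51 two-colour cDNA arrays of cotton ovule RNA. The deposited values are log2 ratios, 1 per clone and array, read as the first RNA named for an array over the second. Scanner, background correction and normalization by the authors are not given in the sources used here, and neither is a genome build. Medians over clones lay between -0.044 and -0.014 on the +15 arrays and between -0.046 and -0.017 on the +10 arrays. How the arrays were centred is unknown, and the direction of the ratios is likely but not stated. An exact 0 was taken as missing. The forward array and its dye swap were averaged, and such a set counted as 1 replicate. Set 2 of +10 was left out because its forward array equals an array labelled +5 against +3 in all 19 rows other than clones that both measured, 8 control rows and 11 named spots.

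One group-means model was fitted with limma 3.58.1 in R 4.3.3 to 22 sets of 8 comparisons, without the self-to-self arrays. The difference was +15 over +3 minus +10 over +3, for 10088 probes with at least 2 complete sets at each age. Of these 10077 were clones, and 1605 clones were not tested. P-values were adjusted by the Benjamini-Hochberg method over all probes tested, with a threshold of 0.05. Moderated variances drew on all rows of the table. The p-values measure the spread between sets. An exact permutation test of 3 against 2 sets has 10 arrangements and cannot go below a two-sided p of 0.1, so none was used. The code was tested on simulated data.

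Clones named are the 12 with the largest rise and the 12 with the largest fall among those called, changed at least 2-fold, measured on all 10 arrays and with sets that did not overlap. All 11 spots with gene-like names are included. Comparisons, probe groups and naming rules were chosen with earlier results of these data known. Lists of genes and of cell type markers chosen by annotation keyword could not be applied, because no source used here names the clones' genes. Alternatives covered array centring, scaling, plate centring, the sets and arrays kept, the treatment of 0, the minimum of sets, dye orientation, a replicate block and leaving out each set. Centring of the named spots was added after the data were seen.

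The set numbers of the 2 ages were checked for pairing. Deviations of same-numbered sets from their group means correlated by 0.14 (set 1) and 0.090 (set 3) across probes. Only these 2 numbers are shared, and the design text calls the samples independent, so the sets were not treated as pairs.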

Additional observations from a re-analysis of the deposited data

How the results depend on the processing

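The 5 counts of the main comparison were 3121 probes changed, 1482 higher and 1639 lower at +15, with 292 at least 2-fold higher and 411 at least 2-fold lower. Forward arrays alone called 1401 probes, 636 higher and 765 lower. Scaling the arrays to a common spread left 165 probes at least 2-fold higher and 264 lower. Leaving out 1 set at a time gave 1785 to 2677 changed, 863 to 1294 higher and 922 to 1383 lower, with 239 to 345 at least 2-fold higher and 336 to 469 lower. The replicate block, with the set number as a factor, gave 2990 changed probes, 1495 in each direction. Under the other alternatives, scaling included, the number changed lay between 2375 and 3841. Turning all ratios would only exchange higher and lower.

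No named clone changed direction under any alternative. Clone values kept their call in 398 cases and lost it in 10, 7 for CM024E02, 2 for CM013E07 and 1 for CM016F10 (dye swaps alone, limma adjusted p = 0.0621). ACT1 and TUB1 remained called in every alternative run. Uncalled spots changed sign. Centring on the spot median gave 0.094 for ACT2, 0.30 for ATP1, 0.19 for ATP2, 0.23 for CYC1, 0.15 for UQCR and 0.21 for USP2. Keeping set 2 of +10 with both arrays gave 0.070 for ATP1 and 0.0044 for CYC1, the replicate block 0.033 for ATP1, and forward arrays alone 0.19 for CYC1 and 0.21 for USP2. Leaving out 1 set gave -0.11 to 0.14 for ATP1, -0.23 to 0.0090 for ATP2, -0.21 to 0.063 for CYC1, -0.45 to 0.10 for UQCR, -0.055 to 0.29 for USP1 and -0.31 to 0.096 for USP2. The causes were not tested. The table holds no signal or background, and dim spots could not be examined.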

Other observations

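Some clones had values at only 1 of the 2 ages and so entered no test. On all 6 arrays of +15 and on none of the 4 arrays of +10, 16 clones were measured. Their levels at +15 lay between -0.49 and 5.30 relative to +3 on the log2 scale, with a median of 0.50, and 5 of the 16 stood at least 2-fold above +3. The brightest ratio was that of clone CM011D08, which read 5.51, 5.27 and 5.12 in sets 1 to 3 of +15 and 4.27, 4.90 and 5.75 in sets 1 to 3 of +20. One clone, CM109H10, showed the reverse, with no set value at +15 or +20 and 3.66 and 3.61 in sets 1 and 3 of +10. Both clones were named after their values had been seen, and a missing value does not say that a transcript was absent.

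The array that appears under both the +10 and the +5 label read more like +10. Across clones, its values as +10 set 2 forward correlated by 0.74 to 0.82 with the 5 other +10 arrays and by 0.58 to 0.71 with the 5 other +5 arrays. As +5 set 3 forward the ranges were 0.76 to 0.85 and 0.58 to 0.76. The 2 versions correlated by 0.94 with each other, and all these arrays share +3 wild type.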
